A study of Rattus norvegicus with 120 samples.

Results

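The animals compared here were the 30 rats with the highest and the 30 with the lowest joint eye level of Scd and Lpo, 60 of the 120 in the series. Scd makes stearoyl-CoA desaturase, which puts the double bond into newly made fatty acids, and Lpo makes lactoperoxidase, an antimicrobial peroxidase of tears, saliva and milk. The level of each gene chose the animals: it was taken relative to the mean of its S code (the S number in the sample title, 10 codes of 11 to 13 animals, not explained in the labels), scaled to unit SD and averaged over both genes to a score, so that the members were chosen by these measured values. All animals were F2 males from SR/JrHsd and SHRSP rats, killed at 12 weeks, with both eyes of an animal pooled and measured on 1 Affymetrix array, and they received no treatment named in the labels. The study was designed to map loci that set gene expression in the eye. Each F2 animal carries its own mixture of the parental genomes, there were no replicate arrays, and the labels do not say how much tissue beside the globe was left on the eyes. The values are log2 levels made by robust multi-array averaging.

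Rodents carry several glands around the eye. The Harderian gland behind the globe secretes lipids, and in many rodents porphyrins and melatonin, the lacrimal gland secretes the watery and protein part of tears, and the meibomian glands of the eyelid secrete wax and cholesterol esters. Scd is abundant in lipid-secreting glands and in fat, Lpo in watery secretory glands, and Pigr, the polymeric immunoglobulin receptor, carries antibodies across secretory epithelium into tears and mucus. In whole-eye RNA, fewer cells of a type and less RNA per cell cannot be told apart.

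The promoters of Lpo and Pigr are shown because the level of Pigr rose with that of Lpo in these eyes (slopes given below). Lpo helped to choose the animals, and Pigr was the gene that differed most clearly between the groups. The slope therefore reuses values that chose the groups, and is no separate test. Pigr was not shown to follow Lpo more than Scd, and a shared control of Lpo and Pigr was not tested. The sequences are those of RefSeq on the GRCr8 assembly, in the direction of the gene and around its start, at chr10:73123407-73123706 on the minus strand for Lpo and at chr13:44850932-44851231 on the plus strand for Pigr. Capitals mark TATAAA in Lpo and CACGTG in Pigr, words that were chosen with the sequences in view and searched on both strands.
Lpo: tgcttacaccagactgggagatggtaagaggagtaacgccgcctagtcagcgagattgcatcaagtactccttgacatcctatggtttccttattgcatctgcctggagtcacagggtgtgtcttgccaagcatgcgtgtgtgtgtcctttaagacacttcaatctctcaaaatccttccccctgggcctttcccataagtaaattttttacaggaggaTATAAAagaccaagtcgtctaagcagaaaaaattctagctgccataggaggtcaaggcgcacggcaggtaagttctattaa
Pigr: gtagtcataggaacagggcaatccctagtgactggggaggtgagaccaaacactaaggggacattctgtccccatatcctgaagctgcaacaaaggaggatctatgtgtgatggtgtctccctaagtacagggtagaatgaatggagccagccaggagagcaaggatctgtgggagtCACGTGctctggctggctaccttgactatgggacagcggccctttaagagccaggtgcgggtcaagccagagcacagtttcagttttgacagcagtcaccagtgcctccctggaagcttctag
Counted from the start of the gene, TATAAA began at position -31 of Lpo and was not present in the Pigr window, and CACGTG, which reads the same on both strands, began at position -73 of Pigr and was not present in the Lpo window. TATAAA was present in 14.2% and CACGTG in 6.42% of 33469 rat promoters of the same length. CACGTG is the E-box, a word that the human PIGR promoter also carries. No binding was measured in these eyes.

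A few arrays stood apart. Animal R77 had a score of 6.02, followed by R121 at 2.15, R89 at 2.03 and the fourth animal at 1.54. In R77, 194 probe sets lay more than 1 log2 above the other arrays of its S code, against a median of 25.5 over all animals and 1926 in the most deviant array, and its median correlation with the other arrays was 0.980 against 0.989 for the series. R121 had 53 such probe sets. R77 raised the Scd mean of S code 7 from 7.81 to 8.20. Its Lpo of 7.04, against a mean of 5.10 in the other arrays of the code, raised that mean too. With R77 in both means, 8 of the 30 low-score animals came from code 7. When the rule was applied again without R77, 3 of 30 did. Without R77, 27 of the high-score and 25 of the low-score animals were chosen again, and the results are given with and without R77.

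Scd and Lpo did not vary together outside R77. Over 120 animals the levels relative to the S code means had r = 0.270 and rho = 0.0717, and without R77 r = -0.0605 and rho = 0.00067, as a description of genes measured on the same arrays. R77 was high in both, with Scd at 12.48 and Lpo at 7.04. R121 was high in Scd alone, at 10.88 with Lpo at 4.72, and R89 in Lpo alone, at 7.05 with Scd at 7.49. Of the high-score animals 16 of 30 lay above the S code mean in both genes, while 27 of 30 low-score animals lay below it in both, so the high-score group joins animals that were high in either gene.

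**Figure D1:**
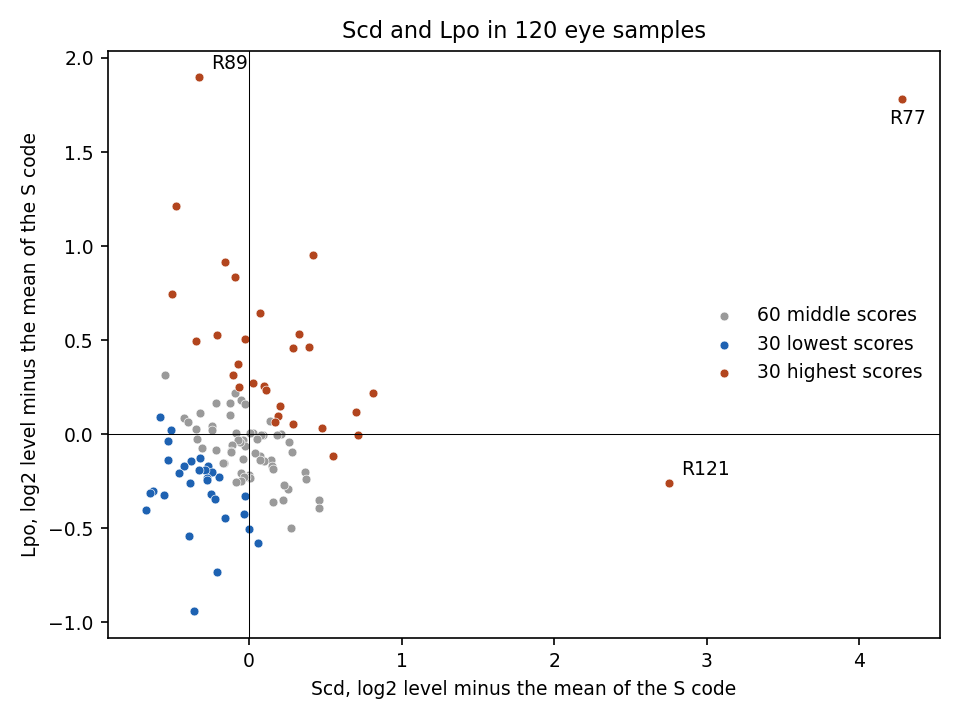
Levels of Scd (x axis) and Lpo (y axis) in 120 eye samples, in log2 units relative to the mean of the S code, each point 1 animal coloured by score group. R77 lies apart in both genes, R121 in Scd alone and R89 in Lpo alone, and the other high-score animals spread along both axes.

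With the S code means removed, Scd in the high-score group ran from 7.36 over a median of 8.01 to 12.15, and in the low-score group from 7.19 over 7.54 to 7.92. Lpo ran from 4.83 over 5.43 to 6.98 in the high-score group and from 4.14 over 4.83 to 5.18 in the low-score group. Both genes overlapped between the groups, with 18 of 30 high-score animals above every low-score animal in Scd and 24 of 30 in Lpo. These values chose the animals and were not tested. At the edges, the lowest high-score animal had a score of 0.229 and the next animal outside 0.211, and the highest low-score animal had -0.411 and the next outside -0.388. Each gene had 1 probe set on the array.

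Among all other genes, only Pigr differed between the groups past the threshold. With the S code means removed, Pigr ran from 7.01 over a median of 7.67 to 8.54 in the high-score animals, from 6.68 over 7.36 to 8.23 in the 60 middle animals and from 6.62 over 7.29 to 7.87 in the low-score animals. The ranges overlapped widely, and 28 of 30 high-score animals lay above the low-score median. The difference was 0.49 on the log2 scale (SE 0.086, a ratio of 1.404, 95% interval 0.32 to 0.66), with an adjusted p of 0.0139 by limma with the S code as a factor. It had the same direction within all 10 S codes, from 0.15 in code 10 (4 high-score and 4 low-score animals) to 0.88 in code 6 (2 and 3 animals). Code 7 set R77 alone against 8 animals, and code 5 set 2 against 1. This split describes the same animals in which Pigr was picked out, and is no further test. R77, R121 and R89 were not the animals of highest Pigr in the series, with levels as deposited of 7.96, 8.04 and 7.84 against a highest level of 8.71.

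That was 1 of 23336 probe sets tested, or 0.00429%, after Benjamini-Hochberg adjustment, and 2322 (9.95%) had an unadjusted p under 0.05. For no probe set did the ranges of the groups fail to overlap. Without R77 limma called 0 probe sets (0%), with 1506 (6.45%) at an unadjusted p under 0.05, and Pigr had a difference of 0.40 (adjusted p = 0.229). In the 60 middle animals, which the comparison had not used, the slope on the score passed for 0 probe sets by limma, with 442 (1.89%) at an unadjusted p under 0.05, and the slope of Pigr was 0.37 per unit of score (adjusted p = 0.9999). Over the other ways of comparing the groups the share called lay between 0% and 0.0171%, and was 0.00322% with no filter on low levels. The slope on the score over all 120 animals passed for 3.01%, and without R77 for 0.0171%.

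**Figure D2:**
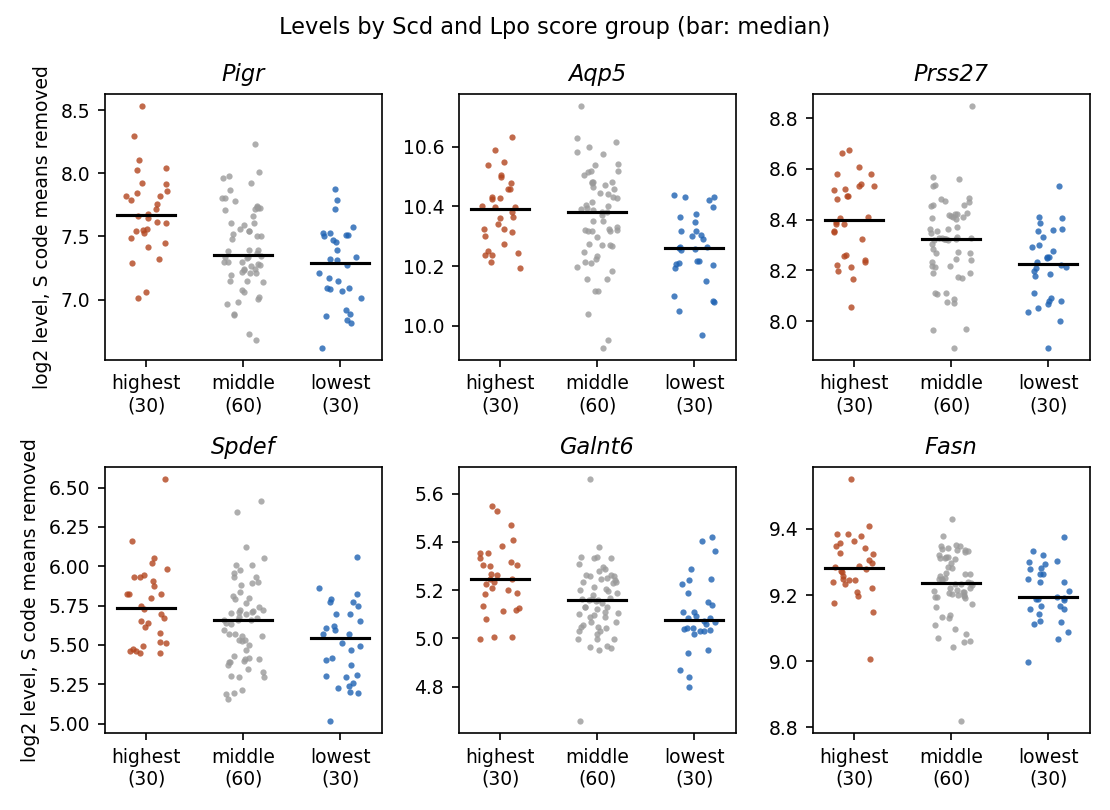
Levels of 6 genes in each animal with the S code means removed (y axis, log2), by score group (x axis, with the number of animals), each point 1 animal and each bar the group median. The medians of Pigr were 7.67, 7.36 and 7.29 in the high, middle and low groups, and in every panel the groups overlapped.

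The genes of next smallest p did not pass. Aqp5, the water channel of lacrimal acini and of corneal epithelium, ran from 10.19 over 10.39 to 10.63 in the high-score and from 9.97 over 10.26 to 10.44 in the low-score animals. Its difference was 0.15 (SE 0.034, adjusted p = 0.118 by limma), and it was positive in 10 of 10 S codes, as a description of the same animals. Slpi, a secreted protease inhibitor of mucosal fluids, had medians of 8.33 and 8.08 (difference 0.29, adjusted p = 0.118). Prss27, a serine protease of stratified epithelium, had medians of 8.40 and 8.23, and Tnfrsf21, a death receptor, had medians of 7.29 and 7.12, both at the same adjusted p. Chst14 and Hs2st1, enzymes of glycosaminoglycan sulfation, had differences of 0.15 and -0.14, and Cep295, a centriole gene, had -0.42. Without R77 the adjusted p of these genes lay between 0.229 (Hs2st1) and 0.743 (Chst14).

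The label of gland-rich and gland-poor eyes was checked against 7 lists of gland genes. Of their 129 genes, 14 lacked a probe set and 10 were below the filter on low levels, a mean of 4.28 over the animals. Of the others Pigr alone passed (0.00811% of 12328 genes were called higher), and 76 were higher and 29 lower in the high-score group with no threshold, with a median difference of 0.036 beside -0.00050 over 12328 genes. Over these 12328 genes 49.6% had a positive difference, and 47.6% without R77, which is the share to set beside the counts of each list. An unadjusted p under 0.05 was found for 25 of the gland genes tested (23.8%, beside 9.95% of all probe sets), and without R77 for 16 (15.2%, beside 6.45%) with a median of 0.017. These shares are of unlike sets, because each gland gene was taken by its brightest probe set. The like share over 12328 genes is not given here. The groups are therefore called by their score here and not by the gland. Among the genes below the filter were the tear and saliva genes Lcn1 (mean 3.30), Pip (3.16) and Bpifa2 (3.86), which make a tear lipocalin, a prolactin-induced protein and a salivary antimicrobial protein.

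In the list of acinar secretion, 18 of 23 genes had a positive difference and 1 passed, with a median of 0.037 (without R77 19 of 23 and 0.028, with 0 passing). Spdef, a transcription factor of goblet and other mucous cells, had medians of 5.74 and 5.54 (difference 0.27, SE 0.069, adjusted p = 0.149). Slc34a2, a phosphate transporter of secretory epithelia, had medians of 6.27 and 6.01 (0.35, SE 0.11, adjusted p = 0.291). Lcn2, Lyz2, Dmbt1 and Agr2, further secreted or secretory-cell proteins, had differences of 0.037, 0.025, 0.022 and 0.015, each smaller than its standard error. The muscarinic receptor gene Chrm3, which drives tear flow, had -0.016.

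In the list of gland epithelium, 21 of 23 genes had a positive difference and 0 passed, with a median of 0.058. Spint2, an inhibitor of membrane proteases, had medians of 10.45 and 10.36 (difference 0.12, adjusted p = 0.137), and Elf3, an epithelial transcription factor, 9.44 and 9.31 (0.17, adjusted p = 0.284). The keratins of simple epithelium Krt8, Krt18, Krt19 and Krt7 had differences of 0.040, 0.020, -0.039 and 0.006. Runx1, named in the list for its place in gland development, had medians of 5.82 and 5.54 (0.33, adjusted p = 0.151). Without R77 the list's median was 0.023 and Runx1 had 0.36. R77 had the highest mean of this list among all animals, at 0.41.

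In the list of fatty acid and wax synthesis, the process to which Scd belongs, 19 of 25 genes had a positive difference and 0 passed, with a median of 0.047 (without R77 also 19 of 25, with 0.029). Fasn, fatty acid synthase, ran from 9.01 over 9.28 to 9.55 in the high-score and from 8.997 over 9.19 to 9.38 in the low-score animals (difference 0.097, adjusted p = 0.232). Slc25a1, which exports citrate for lipid synthesis, had medians of 7.92 and 7.79 (0.20, adjusted p = 0.258). Acaca and Acly, which supply malonyl-CoA and acetyl-CoA, had differences of -0.001 and -0.018, and Srebf1, the factor that drives lipid synthesis genes, had 0.073. Scd2, the close relative of Scd, had medians of 11.66 and 11.64 on its brightest probe set (difference 0.066, adjusted p = 0.510). Elovl1, Plin2 and Elovl6 reached 10.63, 10.07 and 10.01 in their highest high-score animal, each the level of R77.

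Haem synthesis (7 of 10 genes positive, median 0.013), melatonin synthesis (3 of 3, 0.036), ether lipid synthesis (2 of 5, -0.049) and the secretory pathway of the endoplasmic reticulum (6 of 16, -0.008) had no gene past the threshold. Among them were Alad, an early enzyme of haem synthesis, at 0.056, Aanat, which makes the precursor of melatonin, at 0.069, and Hspa5, the chief chaperone of secretory cells, at -0.041. Without R77 the medians were 0.012, 0.022, -0.017 and -0.022.

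The 21 further lists, of other tissues of the eye and of metabolic and response genes, had no gene past the threshold. Their counts of positive differences stand beside 49.6% of 12328 genes, and 47.6% without R77. Skeletal muscle, from the muscles that move the eye, had 24 of 27 positive differences with a median of 0.067 (0.080 without R77), and the mean of the list ran from -0.39 to 0.31 in the high-score and from -0.33 to 0.37 in the low-score animals. Cholesterol synthesis had 14 of 14 positive with a median of 0.065 (13 of 14 and 0.036 without R77), of which Dhcr7, its last enzyme, had 0.18 (adjusted p = 0.318). The interferon list had 11 of 11 positive with a median of 0.14 (0.22 without R77), and the mean of the list had medians of 0.0058, -0.027 and -0.12 in the high, middle and low groups. Its highest animals stood at 1.81, 1.97 and 0.39, so the highest of all was a middle animal. Pigment epithelium had 0 of 7 positive with a median of -0.083, led by Rdh5, a retinol dehydrogenase of the visual cycle, whose medians were 6.85 and 7.04 (difference -0.36, adjusted p = 0.247). Cones had 0 of 7 positive, with the middle-wave opsin Opn1mw at -0.20 (adjusted p = 0.369), and rods 3 of 15. R77 was the lowest of 120 animals for both photoreceptor lists, and without it cones had 2 of 7 and rods 12 of 15 positive. Among plasma and B cell genes, Jchain, the joining chain of the antibodies that Pigr carries, had medians of 4.39 and 4.45. The part of these tissues in the difference of Pigr was not tested, beyond its value of 0.46 (adjusted p = 0.0499) with the muscle list and 0.45 (adjusted p = 0.264) with the fat cell list as a covariate.

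Measures of the arrays overlapped between the groups. The 3' to 5' difference of actin, which grows as RNA breaks down, ran from 0.81 over a median of 1.18 to 1.54 in the high-score and from 0.82 over 1.15 to 1.72 in the low-score arrays, and that of GAPDH from -0.022 over 0.21 to 0.37 and from -0.013 over 0.15 to 0.62. Array medians lay between 5.82 and 5.90 and between 5.81 and 5.96. Pigr had a difference of 0.52 (adjusted p = 0.00081) with both 3' to 5' differences as covariates. The high-score animals came from 15 L codes (the other code of the titles) and the low-score animals from 16, and with the L code as a further factor Pigr had 0.43 (adjusted p = 0.319).

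The highest array, R77, lay furthest above the other arrays of its S code in genes of skin and of lipid. Krtdap, a protein of differentiating keratinocytes, stood at 10.11 against 3.94 (SD 0.21) in the 11 other arrays of code 7. Krt1 and Krt10, the keratin partners of the upper epidermis, stood at 10.63 against 4.87 and at 11.24 against 6.52, and Loricrin, of the cornified envelope, at 10.93 against 5.54. Tchh and Krt25, of the inner root sheath of the hair, stood at 8.36 against 3.44 and at 9.34 against 4.44. Elovl3, Cidea, Plin2 and Sdr16c5, which elongate fatty acids, build lipid droplets, coat them and oxidise retinol, are strong in sebaceous and meibomian glands. They stood at 7.92 against 3.07, 9.42 against 6.62, 10.31 against 7.38 and 9.37 against 5.83. The means of Krtdap, Tchh and Elovl3 in the other arrays of code 7 lay under the filter of 4.28, so that no fold is given for them. R77 had the highest value of all animals in 1078 of the tested probe sets (4.62%), a count that is not given for the other animals.

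The 3 lists drawn up with these values in view, for cornified epidermis, hair follicle and sebaceous and meibomian lipid, describe the same arrays and test nothing. R77 had the highest mean of each list among 120 animals and R121 the next. Of the genes tested, 10 of 13, 5 of 7 and 11 of 13 lay more than 1 log2 above the other arrays of the S code in R77, and 6 of 13, 2 of 7 and 7 of 13 in R121. Over all 31042 probe sets that are not controls, 194 did so in R77 and 53 in R121. Without these 2 animals, the high-score group had medians of -0.028, -0.0051 and -0.0015 in the lists' means. The low-score group had -0.08, -0.02 and -0.03. The S code means removed here still held R77, which lowered the values of the other code 7 arrays. Of those arrays 8 were low-score animals, and R77 was the only high-score animal of code 7. The lower low-score medians therefore cannot be read as a difference that remained without R77. Several of the other lists were also highest in R77 among 120 animals, including fatty acid and wax synthesis (0.54), smooth muscle (0.52), fat cells (0.45), gland epithelium (0.41), cholesterol synthesis (0.40), conjunctiva and cornea (0.27) and acinar secretion (0.26).

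Animal R18 was high in epidermal genes without a high Scd, and was singled out after its values were seen. Its Krtdap stood at 7.96, Loricrin at 8.83 and Krt10 at 9.69, close to the levels of R121 (8.09, 8.45 and 9.60). Its Scd was 7.95 against 10.88 in R121, and its levels of the hair follicle and lipid genes plotted here lay within the range of the remaining animals. Among its own S code, however, R18 was above all 10 other arrays in Elovl3 (3.21 against a highest of 3.15), Plin2 (7.59 against 7.47), Cidea (6.86 against 6.72) and Elovl1 (8.98 against 8.95), and not in Krt25, Tchh, Sdr16c5, Pctp, Soat1 or Acsbg1. R18 belonged to the middle group with a score of -0.231.

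**Figure D3:**
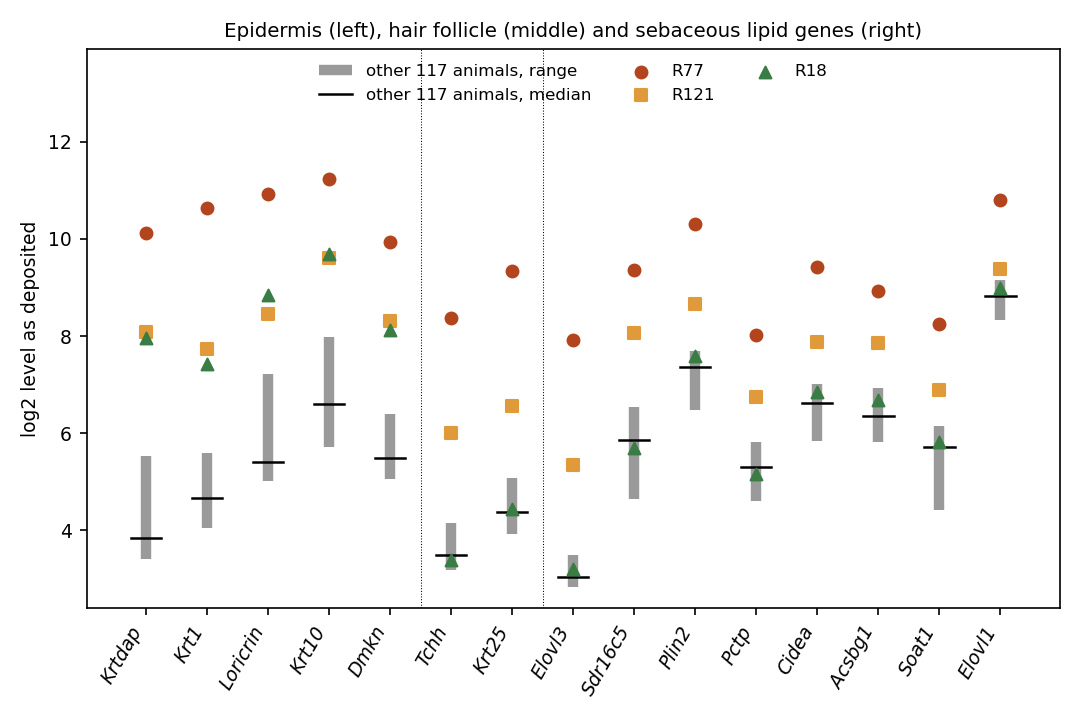
Levels as deposited (y axis, log2) of 5 epidermal, 2 hair follicle and 8 lipid genes (x axis) in animals R77, R121 and R18, beside the range (grey bar) and median (black line) of all remaining animals. R77 and R121 lie above the grey bar for all 15 genes and R18 for the 5 epidermal genes alone, and levels may be compared within a gene but not between genes.

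Since Scd and Lpo varied apart, each was also used alone, as a slope per SD of its level relative to the S code mean. Without R77 the slope on Scd passed for 39 probe sets (0.167%), of which 33 rose and 6 fell with Scd (among genes by 1 probe set 0.211% rose), and the slope on Lpo passed for 2 (0.00857%). With R77 included the slope on Scd passed for 420 (1.80%) and that on Lpo for 162 (0.694%), and 28 of the 420 were also called without it. The 28 named genes past the threshold for Scd included genes of lipid metabolism, such as Cidea (slope 0.097, SE 0.015, adjusted p = 2.4e-05), Plin2 (0.094, SE 0.015), Pctp, a phosphatidylcholine carrier (0.11, SE 0.018), Soat1, which makes cholesterol esters (0.093, SE 0.018), and Elovl1, which makes very long fatty acids (0.053, SE 0.010). The epidermal genes Krt1, Loricrin, Krt10, Dmkn and Asprv1 also passed, with slopes between 0.10 and 0.21. The dimmer probe sets of Plin2 (0.041, adjusted p = 0.507) and Soat1 (0.036, adjusted p = 0.456) did not pass by limma. Other genes passed too, among them Ldb2 (0.11), Mon2 (0.094), the growth factor receptor Erbb2 (0.060) and the matrix protein gene Agrn (0.046), and Pak3 (-0.12) and Nhsl2 (-0.075) fell with Scd. The genes past the threshold for Lpo were Pigr (0.16, SE 0.031, adjusted p = 0.0229) and Galnt6, an enzyme that starts mucin-type sugar chains (0.067, SE 0.013, adjusted p = 0.0229). Without R89 as well, Pigr had a slope of 0.16 (adjusted p = 0.0080), and Galnt6 had 0.056 (adjusted p = 0.150). The Lpo values also helped to choose the groups in which Pigr was picked out, so the Pigr slope is no separate test.

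The difference of the slopes was tested in a fit with both genes, again without R77 but with R121, which was high in Scd alone. It passed for 13 probe sets (0.0557%), 10 with the larger slope on Scd and 3 with the larger slope on Lpo. Sdr16c5 (difference 0.17, SE 0.029, adjusted p = 0.0005), Plin2 (0.12), Krt1 (0.25), Krt10 (0.26), Acsbg1 (0.12), Krt25 (0.12), Adtrp (0.11), Krt79 (0.13) and Pctp (0.11) were the named genes with the larger slope on Scd. This fit was not repeated without R121. Without R77 and R121, the slope on Scd passed by limma for none of these named genes. It was 0.032 for Sdr16c5 (adjusted p = 0.391), 0.025 for Krt10 (adjusted p = 0.772) and 0.048 for Pctp (adjusted p = 0.112). A larger slope on Scd outside R121 was therefore not shown. For Pigr the difference of slopes was -0.083 (SE 0.041, adjusted p = 0.239) and for Galnt6 -0.038 (adjusted p = 0.225). Neither was shown to follow Lpo more than Scd.

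**Figure D4:**
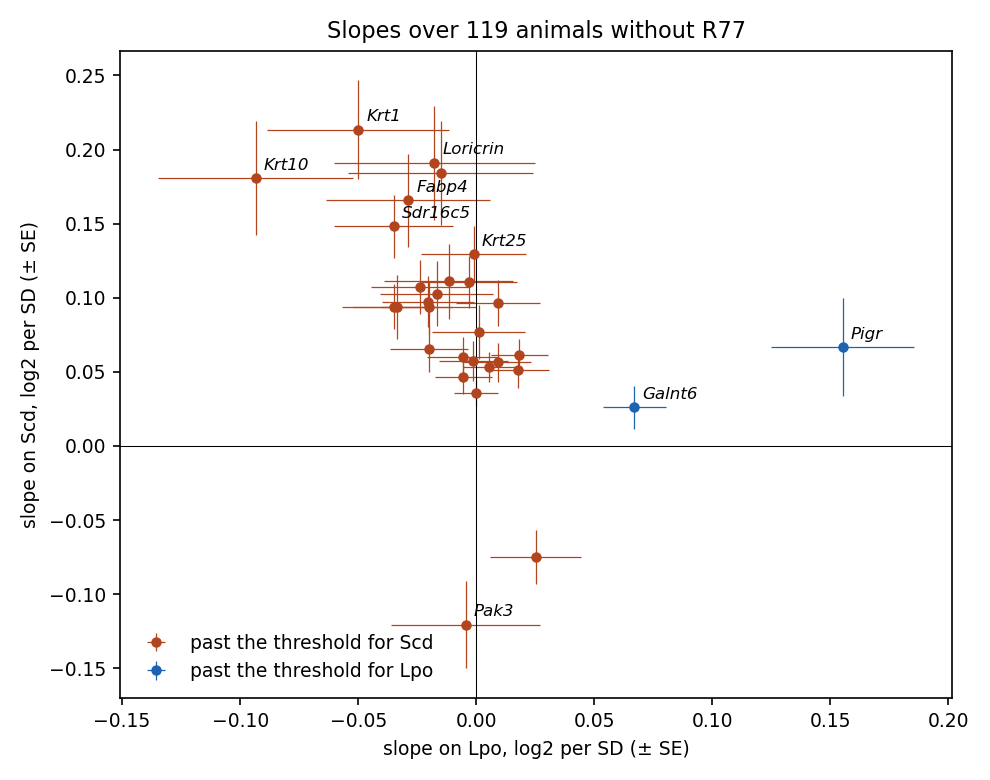
Slopes on Lpo (x axis) and on Scd (y axis) in log2 per SD in all animals but R77, for the genes past the threshold for either, with standard errors as bars. The 28 genes past the threshold for Scd lie between -0.093 and 0.025 on the Lpo axis, and Pigr (0.16) and Galnt6 (0.067) lie to the right.

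The lipid and epidermal genes named for Scd did not pass without R121. Without R77 and R121 the slope on Scd, per SD of a spread that was 0.273 in place of 0.379, passed for 397 probe sets (1.70%), 245 rising and 152 falling. Of these, 20 were among the 39 called with R121, which is 51.3% of the shorter and 5.04% of the longer list. Cidea (0.036, adjusted p = 0.175), Plin2 (0.029, adjusted p = 0.300), Krt1 (0.031, adjusted p = 0.630) and Krt25 (-0.008, adjusted p = 0.799) no longer passed. Fabp4, the fatty acid carrier of fat cells, passed with and without R121, at 0.17 (SE 0.031, adjusted p = 0.0011) and 0.22 (SE 0.028, adjusted p = 5.0e-08).

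Without R77 and R121 some genes of fat rose with Scd. Of 14 fat cell genes 3 passed and all of these were higher with higher Scd, namely Fabp4, Gpd1, which makes the glycerol backbone of fat (0.071, SE 0.015, adjusted p = 0.0065), and Adipoq, the fat hormone adiponectin (0.079, SE 0.022, adjusted p = 0.0371). The median slope of the list was 0.032 beside 0.0090 over 12328 genes, of which 1.26% passed upward. Car3, a carbonic anhydrase abundant in fat and muscle, had 0.14 (adjusted p = 0.0069), and Pecam1, of endothelium, 0.073 (adjusted p = 0.0069). Skeletal muscle had 26 of 27 positive slopes with a median of 0.039 and 0 past the threshold, beside 70.9% positive over all genes. Of 25 genes of fatty acid and wax synthesis 0 passed on their brightest probe sets, although the dimmer probe set of Fasn did (0.067, adjusted p = 0.001) and the brighter one had 0.030 (adjusted p = 0.060). The slope on Lpo without R77 had a median of -0.010 over the fat cell list and passed for none of its genes. In the extreme groups themselves Fabp4 had medians of 6.92 and 6.54 (difference 0.31, adjusted p = 0.358).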

How the data were processed

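Per the submitters' processing notes, the authors made the deposited log2 values by robust multi-array averaging (RMA, no version given), 1 array for each of 120 animals. The genome build and array annotation behind them are not given in the sources used here. RMA can hide a change shared by most genes, and the number of arrays limits the precision. Array medians lay between 5.78 and 5.96.

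Gene symbols came from GEO's platform annotation and were brought up to date with RefSeq (GRCr8) through Entrez numbers, which matched 20758 of 20826 with 1 symbol. The labels put all animals in 1 group, and the score groups were set by the rule in the report. Probe sets whose mean was under the lower quartile of all values (4.28) were not tested, nor were those of Scd and Lpo. Tests used limma 3.58.1 in R 4.3.3 (lmFit, eBayes, S code as a factor), Benjamini-Hochberg adjustment over 23336 probe sets and a threshold of 0.05. A gene was represented by its probe set of highest mean. Group values in the text have the S code means removed, and values of single animals are as deposited. The p-values measure the spread between animals together with the error of single arrays.

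The members and lists were chosen with earlier results of these data known. The 72 named genes were the called ones, the 10 of smallest p, called members of gland lists and the 3 of smallest p of each other list. Further genes, the lists of skin genes, the slopes without single animals and the sequence words were chosen after values were seen. The test was tried on simulated data. The alternatives were other fits, filters, covariates, group sizes and left-out animals. Figures were drawn with matplotlib 3.10.9.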

Additional observations from a re-analysis of the deposited data

How the results depend on the processing

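No paired analysis was possible because the labels put all animals in 1 group and number each animal once. The S code, which both score groups share, was a factor in the fit. The count of 1 probe set past the threshold became 0 without R77, without R77 and R121, without the S code in the fit, with the L code as a further factor, with 20 against 20 animals, with the fat cell list as a covariate, at an adjusted p under 0.01 and for the slope over the 60 middle animals. At an unadjusted p under 0.05 limma gave 1506, 1540, 791, 2402, 1729, 2245, 2322 and 442 in that order. The count became 2 without R63 and R15 (Pigr and an unnamed probe set) and with array medians subtracted (Pigr and another), and 4 with 40 against 40 animals (Pigr and Tmem119 higher, Car2 and another lower). It stayed at 1 with no filter, without the rescanned arrays, with the 3' to 5' differences and with the muscle list as covariates. Slopes over 120 animals passed for 702 probe sets on the score, 420 on Scd and 162 on Lpo, and without R77 for 4, 39 and 2, without R121 or R89 as well for 397 on Scd and 2 on Lpo, and for 13 in the difference of slopes. Among list genes fixed with the design, 1 passed. The count was 0 under the settings that gave 0 above, the stricter threshold aside, and with the probe set of next-highest mean, 38, 33 and 10 for the slopes over 120 animals, and without R77 2 and 5 on the score and Scd, and 4 on Scd without R121 as well. Pigr passed in 12 of 23 alternatives, with adjusted p between 0.00033 and 0.9999. Its Scd slope minus its Lpo slope, counted among the alternatives, was negative (-0.083, SE 0.041). This is another quantity than the group difference, and its sign means a larger slope on Lpo. Without R77 Pigr had positive slopes on both genes (0.067 on Scd and 0.16 on Lpo). Of 1656 values of named genes under alternatives, 1608 kept their side of the threshold, 37 newly passed and 10 no longer did. The remaining 1 was the Pigr difference of slopes, which is not a reversed group difference. These counts do not say that genes short of the threshold kept their direction. The causes were not tested.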
